A study of Mus musculus with 12 samples.

Results

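The genes described here are 34 genes listed as markers of macrophages and other leukocytes and measured in mouse dorsal root ganglia. They were chosen by name, with earlier results of these data known. Of the 34, 28 had counts, among 13260 genes with counts in the deposited table. The other 6 (Cd68, Aif1, Cd163, H2-Aa, Itgam and Pf4) had no site tied to them here and were not analysed further. The 28 genes with counts held between 138 counts (Trem2) and 27222 counts (Lgmn) over all libraries, and all 28 passed the filter on low counts.

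The mice carried Cre under the control of the advillin gene, which is active in sensory neurons, together with a RiboTag allele. Where Cre is active the ribosomal protein Rpl22 carries an HA tag, by which the ribosomes of the neurons can be pulled down with the RNA they hold. One sciatic nerve was crushed, and ganglia L4 to L6 were collected on day 3. The 4 groups, with 3 libraries each, were IP injured and IP naive (RNA precipitated with the tag from ganglia of the crushed and of the uncrushed side), and input injured and input naive (RNA of the same kinds of ganglia before precipitation). All 4 groups carried Cre and the tag, and the naive ganglia came from the operated animals. None of the 12 libraries came from ganglia without the tag. Each library pooled ganglia of 4 mice, and animal age, sex and strain background are not given in the sources used here. Whether the 3 pools are independent sets of mice is not stated, so p-values measure the spread between these pools.

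Macrophages live between and around the cell bodies of sensory neurons, and they engulf debris, present antigen and secrete complement. They depend on the receptor Csf1r and its ligands CSF1 and IL34. After injury of a peripheral nerve, macrophages are known to gather in the ganglion as well as in the nerve. The tag is directed to sensory neurons in this design, so the RNA of macrophages is part of the input. In whole ganglia a change in the number of cells and a change in RNA per cell cannot be told apart.

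Libraries held between 10045178 and 18687123 counts. Levels are CPM, counts relative to library size after TMM scaling. Each count belongs to a genomic interval (site) that is read here as a 3′ end of RNA. Whether a site is the true end of a transcript was not tested, and the sequence around the sites was not examined. Summed over their lists, sensory neuron genes in IP stood at 131% of input in injured ganglia and 134% in naive ganglia, and fibroblast genes at 10.9% in both. Satellite glia genes stood at 39.8% of input in injured and 27.6% in naive ganglia. Most of their sum in IP came from Glul, and the sums without it are given below. Endothelial and mural genes stood at 30.5% in injured and 24.9% in naive ganglia, and Schwann cell genes at 28.9% and 28%. The 2 IP libraries numbered 1 had the lowest sums of their group for fibroblast, satellite glia, Schwann cell, endothelial and erythroid genes and for monocyte and neutrophil markers, while lymphocyte markers were lowest in libraries 2. Fibroblast genes summed to 173 CPM in IP injured library 1, against 424 and 317 in the other two, and to 156 CPM in IP naive library 1, against 360 and 235.

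The promoters of 24 of the 34 genes were in the RefSeq table of build GRCm38.p6, which gives 250 bases before to 50 bases after each gene start. Spi1, one of the genes described here, encodes PU.1, a transcription factor of macrophages that binds purine-rich DNA. The purine stretch GAGGAAGT, read on both strands, was in the windows of 5 of the 24 genes, and in the windows of 3.69% of all 27025 genes of the table. The shorter GAGGAA, which is contained in it, was in 14 of the 24 and in 31.3% of all. A match describes these letters and is not a binding site. The 4 windows below are those of the genes with counts that hold GAGGAAGT, shown so that the promoters of genes from different roles can be compared. Each runs 5′ to 3′ on the strand of the gene, with the match (or ACTTCCTC on that strand) in capitals. The windows are C1qc at chr4:136892865-136893164 (minus strand), Cd53 at chr3:106790100-106790399 (minus), Ctss at chr3:95526536-95526835 (plus) and the second listed start of F13a1 at chr13:37049164-37049463 (minus).
C1qc: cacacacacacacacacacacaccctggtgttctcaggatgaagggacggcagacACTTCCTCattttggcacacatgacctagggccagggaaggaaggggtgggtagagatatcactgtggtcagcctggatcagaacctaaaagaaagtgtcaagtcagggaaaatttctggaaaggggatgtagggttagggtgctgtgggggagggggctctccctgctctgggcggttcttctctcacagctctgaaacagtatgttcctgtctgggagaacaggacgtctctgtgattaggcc
Cd53: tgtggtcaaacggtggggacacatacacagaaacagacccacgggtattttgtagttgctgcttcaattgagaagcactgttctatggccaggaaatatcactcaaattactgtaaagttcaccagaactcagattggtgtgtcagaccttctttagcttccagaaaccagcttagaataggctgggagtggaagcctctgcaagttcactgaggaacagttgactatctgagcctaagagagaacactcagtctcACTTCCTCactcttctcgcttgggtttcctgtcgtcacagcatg
Ctss: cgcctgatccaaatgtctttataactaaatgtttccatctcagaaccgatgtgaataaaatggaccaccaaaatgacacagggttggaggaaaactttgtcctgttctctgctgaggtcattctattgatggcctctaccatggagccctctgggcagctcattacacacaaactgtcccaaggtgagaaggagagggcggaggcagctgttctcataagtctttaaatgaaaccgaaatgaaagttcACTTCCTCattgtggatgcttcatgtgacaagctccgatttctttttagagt
F13a1: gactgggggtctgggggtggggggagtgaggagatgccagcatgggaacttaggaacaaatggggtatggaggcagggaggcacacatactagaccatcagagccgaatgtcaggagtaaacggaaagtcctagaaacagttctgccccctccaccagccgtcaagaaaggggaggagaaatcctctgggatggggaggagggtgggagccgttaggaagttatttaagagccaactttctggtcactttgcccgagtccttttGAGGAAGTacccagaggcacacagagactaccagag

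The first question was how far these genes were kept out of the precipitate. Of the 28 tested genes, 12 were lower in IP than in input in injured ganglia and 13 in naive ganglia, and none was higher in either (edgeR quasi-likelihood, adjusted p under 0.05). Of all 11387 genes tested, 4.02% were lower and 1.91% higher in IP in injured ganglia, and 5% lower and 1.96% higher in naive ganglia. The median log2 fold change of the 28 was -2.24 in injured ganglia and -2.69 in naive ganglia, against 0.02 and -0.02 for all genes. With the 3 genes that had no counts in IP naive libraries set at their bound, the naive median was -2.59. Every IP library lay below every input library for 21 of the 28 genes in injured ganglia and for 20 in naive ganglia, and above it for none. Over all genes tested IP lay wholly below input for 14.4% in injured and 13.9% in naive ganglia, and wholly above it for 13% and 10.8%. A set of 8 genes passed in both comparisons, namely C1qa, C1qc, Cd52, Cd53, Ctss, H2-Ab1, H2-Eb1 and Lyz2.

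Calls of single genes depended on single libraries. In naive ganglia 8 of the 13 calls were kept with any 1 of the 6 libraries left out. The other 5 (Cd74, Csf1r, Ctss, Cx3cr1 and H2-Ab1) all lost the call without IP naive library 1, which left 8 genes, with adjusted p between 0.0532 (Csf1r) and 0.0996 (Cx3cr1). With only the 6 naive libraries in the fit, Fcer1g (adjusted p = 0.0645), Cd74 (0.0658), Csf1r (0.091) and Cx3cr1 (0.145) lost the call, and 9 genes passed. Csf1r, Ctss, Cx3cr1 and H2-Ab1 also lost it without IP naive library 3. Cx3cr1 lost it without input naive library 2 (adjusted p = 0.152), and Csf1r, Cd74 and H2-Ab1 without input naive library 3 (0.0679, 0.0956 and 0.141). In injured ganglia 6 of the 12 calls were kept with any 1 library left out, and C1qa, C1qb, Cd52, Ctss, Laptm5 and Mrc1 each lost theirs in 1 or more of the 6 fits, with a highest adjusted p of 0.144 for Cd52 and between 8 and 11 genes called. With only the 6 injured libraries in the fit, 15 genes passed, among them Cd74 (adjusted p = 0.0136), Fcer1g (0.00332) and Cx3cr1 (0.0292). Without IP injured library 1 the calls of C1qa, Cd52, Laptm5 and Mrc1 were lost, without library 2 these and C1qb, and without library 3 those of Ctss, Laptm5 and Mrc1. Without input injured library 1 Cd52 lost its call, without library 2 C1qa, C1qb, Laptm5 and Mrc1 did, and without library 3 C1qb, Cd52, Laptm5 and Mrc1 did. In all, 4 genes (C1qc, Cd53, H2-Eb1 and Lyz2) kept the call in every such fit of both comparisons.

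Complement C1q is built from 3 chains, whose genes lie side by side on chromosome 4 (C1qb at 136880126 to 136886200, C1qc at 136889801 to 136892936 and C1qa at 136895916 to 136898844, GRCm38), and it starts the classical complement pathway. C1qc stood at 2.76, 11.9 and 20.1 CPM in IP injured libraries and at 58.8, 44.8 and 54.7 CPM in input injured libraries. In naive ganglia it stood at 1.55, 2.48 and 2.43 CPM in IP and at 26.4, 22.9 and 41.8 CPM in input. Every IP library lay below every input library on both sides, and the log2 fold change was -2.19 ± 0.49 in injured ganglia (adjusted p = 0.00964) and -3.82 ± 0.54 in naive ganglia (adjusted p = 0.000151). C1qa had 2.28, 11.4 and 15.0 CPM in IP injured libraries and 40.1, 75.2 and 65.5 CPM in input injured libraries. On the naive side the values were 0.0774, 2.79 and 2.87 CPM in IP and 15.8, 25.6 and 36.2 CPM in input. The fractions did not overlap on either side. C1qa had a log2 fold change of IP over input of -2.65 ± 0.67 in injured ganglia (adjusted p = 0.0209) and of -3.76 ± 0.73 in naive ganglia (adjusted p = 0.00253). C1qb had 0.158, 3.81 and 7.70 CPM in IP injured libraries and 11.6, 42.9 and 57.4 CPM in input injured libraries. IP naive libraries had 4.03, 1.14 and 2.13 CPM, against 8.48, 15.1 and 14.4 CPM in input naive libraries. IP lay below input throughout on both sides. For C1qb the fold changes were -3.25 ± 0.82 (adjusted p = 0.0209) and -2.36 ± 0.81, the second of which did not pass (adjusted p = 0.0884).

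Among the enzymes, Lyz2, the lysozyme gene of macrophages and neutrophils, had 2.76, 37.3 and 52.6 CPM in IP injured libraries and 175.7, 214.5 and 238.8 CPM in input injured libraries. The naive ganglia gave 12.3, 28.2 and 25.9 CPM in IP and 148.8, 132.1 and 180.5 CPM in input. The groups did not overlap, and IP was 6.79-fold lower in injured ganglia (log2 -2.76 ± 0.56, adjusted p = 0.00398) and 6.95-fold lower in naive ganglia (log2 -2.80 ± 0.56, adjusted p = 0.00344). Of its counts, 10850 of 11335 lay at 1 site 179 bp past the annotated end (chr10:117277337-117277362, minus strand). Without that reach past the end, or with sites at the annotated end alone, Lyz2 did not pass in either comparison. Lyz1 is a close copy of this gene, and how reads that match both were counted is not stated. Ctss, which encodes the antigen-processing protease cathepsin S, had 1.496, 27.6 and 12.5 CPM in IP injured libraries and 74.1, 112.1 and 95.6 CPM in input injured libraries. Its level was 1.78, 13.6 and 5.59 CPM in IP naive and 33.8, 54.4 and 59.0 CPM in input naive libraries. The fractions were separate on both sides. Its fold changes of -2.77 ± 0.67 (injured, adjusted p = 0.0152) and -2.83 ± 0.68 (naive, adjusted p = 0.0134) passed on both sides. F13a1, the A subunit of coagulation factor XIII and a marker of resident macrophages, had 2.76, 5.77 and 3.23 CPM in IP injured libraries and 27.9, 32.5 and 18.1 CPM in input injured libraries. On the naive side the values were 1.70, 3.52 and 4.12 CPM in IP and 6.33, 12.98 and 6.80 CPM in input. Its IP libraries lay below its input libraries on both sides. F13a1 was lower in IP in injured ganglia (-2.74 ± 0.58, adjusted p = 0.00542) and had -1.48 ± 0.56 in naive ganglia (adjusted p = 0.127). With sites at the annotated end alone F13a1 did not pass in injured ganglia (edgeR, -2.95, adjusted p = 0.0821).

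Genes of MHC class II, which displays antigen to T cells, were lower in IP as well. H2-Eb1, a beta chain, stood at 7.72, 27.6 and 39.5 CPM in IP injured libraries and at 96.5, 104.8 and 140.8 CPM in input injured libraries. In IP naive libraries it stood at 5.19, 17.1 and 17.4 CPM, against 90.3, 107.1 and 120.4 CPM in input naive libraries. IP and input values were wholly separate, with log2 -2.19 ± 0.44 in injured ganglia (adjusted p = 0.00399) and -3.00 ± 0.46 in naive ganglia (adjusted p = 0.000296). Nearly all of these counts (7079 of 7121) lay at 1 site 477 bp before the annotated end. The beta chain gene H2-Ab1 had 8.19, 4.68 and 12.8 CPM in IP injured libraries and 50.4, 40.1 and 51.7 CPM in input injured libraries. IP naive libraries had 6.81, 18.1 and 6.32 CPM, against 21.7, 28.9 and 79.7 CPM in input naive libraries. It was separate between the fractions and passed on both sides, with -2.46 ± 0.51 (adjusted p = 0.00476) and -2.07 ± 0.50 (adjusted p = 0.0142). Cd74, the invariant chain that escorts class II molecules, had 3.62, 2.50 and 3.81 CPM in IP injured libraries and 11.04, 17.0 and 20.9 CPM in input injured libraries. The naive ganglia gave 1.24, 0.414 and 5.44 CPM in IP and 10.6, 15.7 and 28.1 CPM in input. The fractions did not overlap, and Cd74 passed in naive ganglia (-2.92 ± 0.73, adjusted p = 0.0189), with -2.29 ± 0.72 in injured ganglia (adjusted p = 0.0652). Whether the 2 sides differ is the interaction below, which called no gene.

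Among surface receptors and adaptors, levels were low. Csf1r, the receptor for CSF1 and IL34, had 42, 42 and 31 counts in IP injured libraries, against 78, 85 and 105 in input injured libraries. It had 0, 18 and 0 counts in IP naive libraries, against 89, 92 and 166 in input naive libraries. The groups were separate on both sides, with log2 -1.64 ± 1.00 in injured ganglia (adjusted p = 0.422) and -4.46 ± 1.15 in naive ganglia (adjusted p = 0.022). Cx3cr1, the fractalkine receptor, had 2.44, 7.51 and 4.99 CPM in IP injured libraries and 14.6, 19.5 and 23.0 CPM in input injured libraries. Its level was 0.464, 1.76 and 1.03 CPM in IP naive and 1.62, 18.6 and 7.58 CPM in input naive libraries. The fractions were separate in injured ganglia and overlapped in naive ganglia. The log2 fold changes of Cx3cr1 were -1.94 ± 0.76 (adjusted p = 0.158) in injured and -3.10 ± 0.81 (adjusted p = 0.0235) in naive ganglia. With sites at the annotated end alone Cx3cr1 did not pass in naive ganglia (edgeR, -2.45, adjusted p = 0.0739). Mrc1, a mannose receptor of resident macrophages, had 2.68, 3.81 and 6.01 CPM in IP injured libraries and 23.0, 52.9 and 38.2 CPM in input injured libraries. On the naive side the values were 5.88, 5.38 and 0 CPM in IP and 9.43, 12.5 and 11.3 CPM in input. IP stood below input on both sides, with fold changes of -3.19 ± 0.82 (adjusted p = 0.0244) and -1.57 ± 0.79 (adjusted p = 0.274). Of the counts of Mrc1, 208 of 1575 lay at the annotated end. With sites there alone Mrc1 did not pass in injured ganglia (edgeR, -1.25, adjusted p = 0.888). Fcer1g, the signalling chain shared by Fc receptors, had 1.97, 7.08 and 6.16 CPM in IP injured libraries and 46.2, 28.9 and 25.6 CPM in input injured libraries. IP naive libraries had 0, 2.172 and 0.588 CPM, against 19.7, 3.67 and 23.3 CPM in input naive libraries. The fractions did not overlap, and Fcer1g had -2.73 ± 0.81 (adjusted p = 0.0518) and -4.12 ± 0.90 (adjusted p = 0.00679). Trem2, a lipid receptor that signals through Tyrobp, had 0, 12 and 13 counts in IP injured libraries and none in IP naive libraries, against 37, 23 and 21 counts in input injured and 11, 6 and 15 in input naive libraries. At these counts its fold is a bound, and Trem2 was at least 14.6-fold lower in IP naive than in input naive libraries, from a floor of 3 counts over the group.

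Cd53, a tetraspanin of leukocytes, gave the widest separation of IP from input among the 28 genes. It had 1, 0 and 6 counts in IP injured libraries, against 67, 136 and 106 in input injured libraries. IP naive libraries had no counts of Cd53, against 143, 39 and 194 in input naive libraries. It was therefore at least 171-fold lower in IP in naive ganglia (floor of 3 counts over the group, adjusted p = 0.000218), and its log2 fold change in injured ganglia was -5.92 ± 1.08 (adjusted p = 0.0024). All of its counts lay 1078 bp before the annotated end. Cd52, a small surface glycoprotein of leukocytes, had 1.97, 3.48 and 11.1 CPM in IP injured libraries and 26.1, 11.5 and 37.6 CPM in input injured libraries. The naive ganglia gave 4.18, 3.83 and 3.46 CPM in IP and 25.9, 18.9 and 27.6 CPM in input. The fractions were separate, with -2.17 ± 0.57 (adjusted p = 0.0271) in injured and -2.66 ± 0.59 (adjusted p = 0.00758) in naive ganglia. Laptm5, a lysosomal membrane protein of blood cells, had 5.04, 13.1 and 12.02 CPM in IP injured libraries and 60.2, 96.3 and 100.6 CPM in input injured libraries. Its level was 0, 10.6 and 20.7 CPM in IP naive and 37.4, 21.6 and 44.1 CPM in input naive libraries. IP was below input throughout, and Laptm5 passed in injured ganglia (-3.10 ± 0.79, adjusted p = 0.0229), with -1.72 ± 0.76 in naive ganglia (adjusted p = 0.199).

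A group of 8 genes, Adgre1, Cd14, Mpeg1, Ms4a7, Ptprc, Spi1, Trem2 and Tyrobp, passed in neither comparison. Their log2 fold changes lay between -3.65 (Adgre1) and -0.88 (Ptprc) in injured ganglia. In naive ganglia those with counts in IP lay between -4.52 (Spi1) and -1.30 (Mpeg1).

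The remaining 3 genes, Lcp1, Coro1a and Lgmn, stood at about the same level in IP and input. Lcp1, which encodes the actin-bundling protein plastin 2, had 136.6, 195.5 and 169.6 CPM in IP injured libraries, against 157.9, 124.4 and 155.2 CPM in input injured libraries. On the naive side the values were 242.3, 171.5 and 189.4 CPM in IP and 205.6, 177.7 and 162.2 CPM in input. IP and input overlapped on both sides, with log2 0.20 ± 0.18 (adjusted p = 0.648) and 0.15 ± 0.18 (adjusted p = 0.728). Coro1a, the actin regulator coronin 1A, had 61.3, 70.9 and 83.4 CPM in IP injured libraries and 44.7, 53.3 and 70.8 CPM in input injured libraries. IP naive libraries had 95.1, 71.7 and 101.3 CPM, against 49.7, 80.8 and 66.3 CPM in input naive libraries. The fractions overlapped in both, and its fold changes were 0.35 ± 0.24 (adjusted p = 0.491) and 0.45 ± 0.24 (adjusted p = 0.311). Lgmn, which encodes the lysosomal protease legumain, had 205.6, 242.5 and 196.3 CPM in IP injured libraries and 194.1, 281.9 and 222.3 CPM in input injured libraries. The naive ganglia gave 190, 232.4 and 207.5 CPM in IP and 201.8, 226.3 and 266.7 CPM in input. These overlapped as well, with -0.12 ± 0.17 (adjusted p = 0.801) and -0.14 ± 0.17 (adjusted p = 0.711).

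These 3 genes made up between 66.0% and 90.3% of the summed CPM of the 28 genes in an IP library, and between 29.1% and 46.4% in an input library. Their sum in IP was 104% of that in input on both sides. The sum of the other 25 genes averaged 167.5 ± 93.6 CPM in IP injured and 963.5 ± 149.2 CPM in input injured libraries, and 96.7 ± 35.0 CPM in IP naive and 629.3 ± 137.2 CPM in input naive libraries (SD, n = 3 each). For those 25 IP stood at 17.4% of input in injured ganglia and 15.4% in naive ganglia. The 3 genes were set apart after their values were seen, and their sums carry no test.

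**Figure D1:**
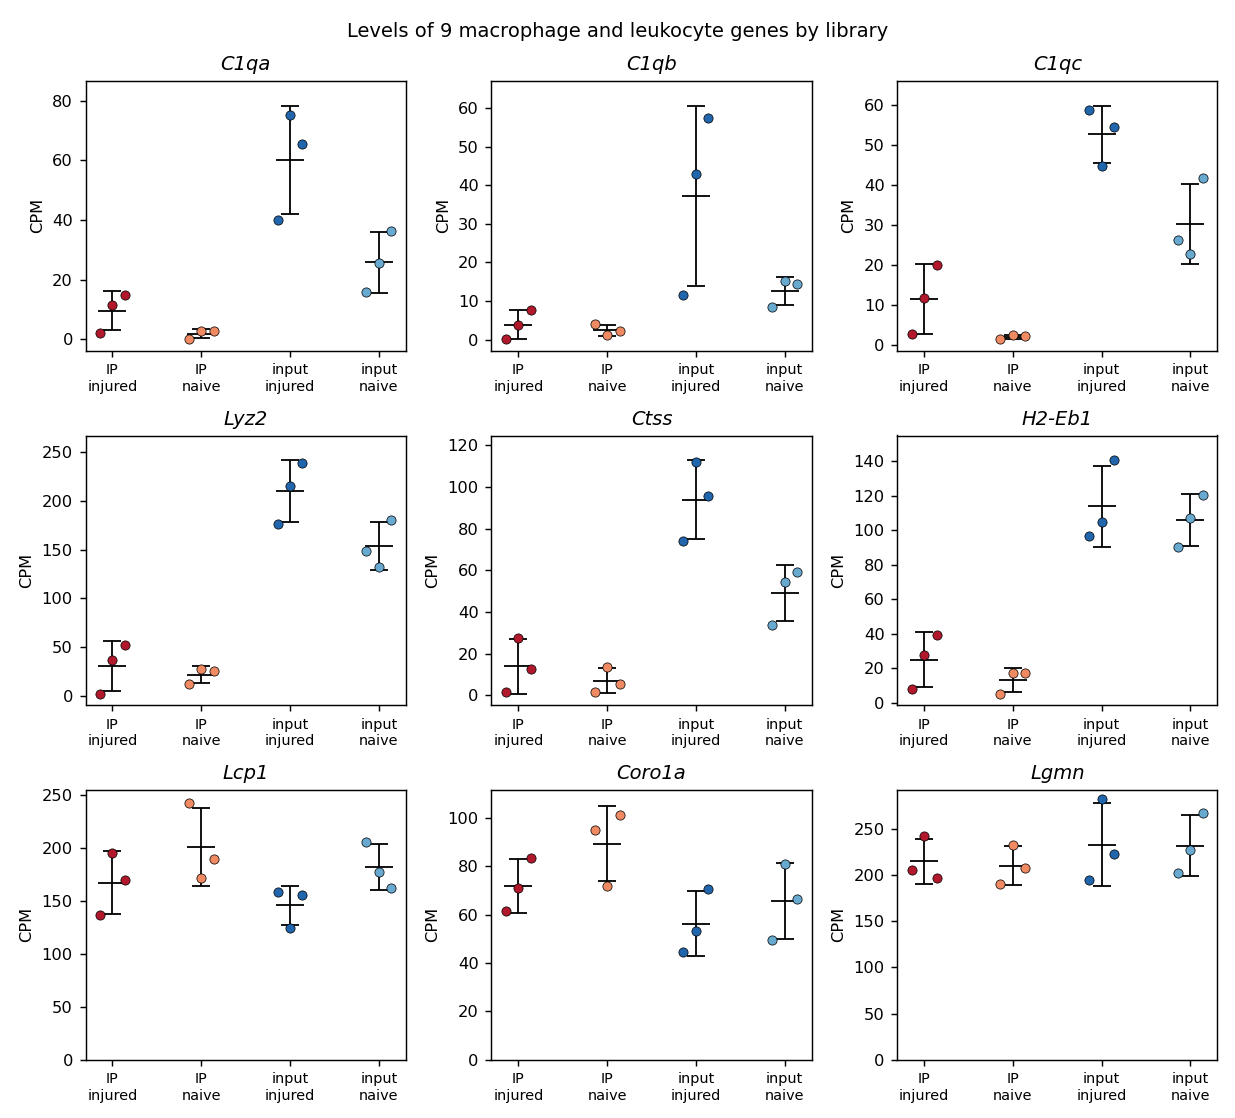
Level (CPM, vertical axis) of 9 genes in each library of the 4 groups, as points with mean and SD bars (n = 3). In the upper 6 panels the IP groups lie below the input groups, while for Lcp1, Coro1a and Lgmn IP and input overlap on both sides.

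**Figure D2:**
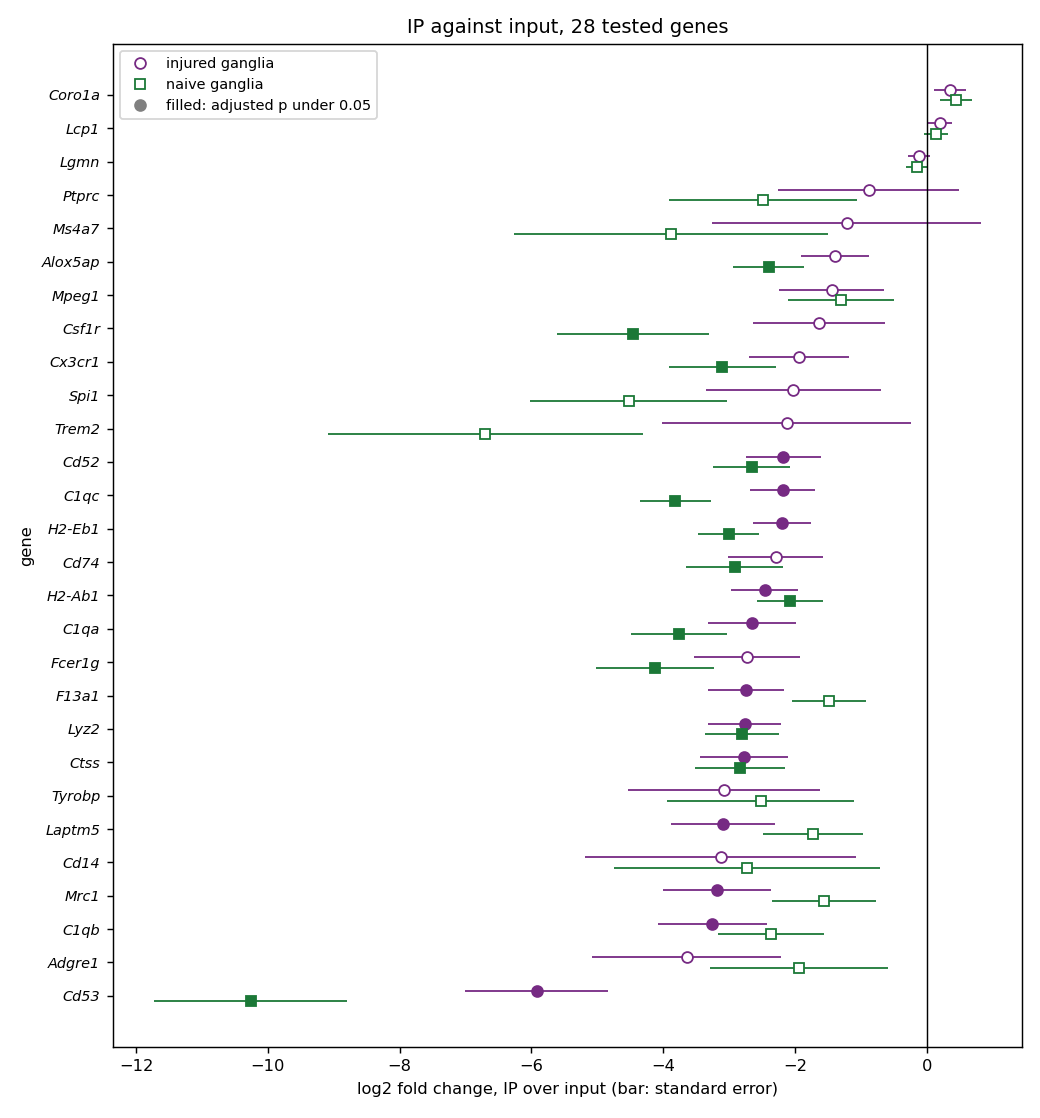
Log2 fold change of IP over input with its standard error for the 28 tested genes, in injured (circles) and naive ganglia (squares), ordered by the value in injured ganglia. Filled symbols passed an adjusted p of 0.05, and for Cd53, Trem2 and Ms4a7 the naive IP libraries had no counts, so that the plotted naive value is a fitted value and not a bound.

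The second question was what the crush did to these genes in the precipitate. C1qc was the 1 gene of 28 that rose in IP, by 2.43 ± 0.52 on the log2 scale (5.37-fold, adjusted p = 0.0171). Over all 11387 genes 1.36% rose and 0.167% fell. Its IP injured values of 2.76, 11.9 and 20.1 CPM lay above the IP naive values of 1.55, 2.48 and 2.43 CPM without overlap. The call was lost without IP injured library 3 (1.72, adjusted p = 0.193), IP naive library 1 (2.21, adjusted p = 0.107) or IP naive library 3 (2.51, adjusted p = 0.0632), and when only the IP libraries were fitted (adjusted p = 0.132). With both IP libraries numbered 1 left out, 2 genes passed, and C1qa was the other one (2.22, adjusted p = 0.0307).

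Most of the other 27 genes had fold changes above 0 in IP without passing. In all, 22 of the 28 were above 0, against 52.1% of all genes tested, and 9 had an unadjusted p under 0.05, against 10.4% of all genes. The median was 0.58, against 0.02 for all genes. Between libraries of a group the median log2 level of the 28 genes had an SD of 0.425, pooled over the 4 groups. The 28 genes were read in the same libraries and are not separate observations. C1qa had 2.28, 11.4 and 15.0 CPM in IP injured and 0.0774, 2.79 and 2.87 CPM in IP naive libraries (2.33 ± 0.70, adjusted p = 0.14). C1qb had 0.158, 3.81 and 7.70 CPM against 4.03, 1.14 and 2.13 CPM (0.67 ± 0.79, adjusted p = 0.913). IP injured and IP naive libraries overlapped for C1qa and C1qb, with IP injured library 1 low for both. The fold changes of Fcer1g (2.51 ± 0.86, adjusted p = 0.225), Csf1r (2.50 ± 1.08, adjusted p = 0.407), Cx3cr1 (2.20 ± 0.79, adjusted p = 0.255) and Alox5ap (1.64 ± 0.53, adjusted p = 0.18) did not pass. IP injured libraries lay wholly above IP naive libraries for 4 of the 28 genes (C1qc, Csf1r, Cx3cr1 and Alox5ap) and wholly below them for none. Over all genes tested 11% lay wholly above and 7.87% wholly below, so 4 of 28 is near the share of all genes. Without IP naive library 2, which held all 18 IP naive counts of Csf1r, Csf1r and Fcer1g passed as well (adjusted p = 0.0015 and 0.0432).

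None of the enzymes and class II genes passed in IP. The log2 fold change was 0.48 ± 0.54 for Lyz2 (adjusted p = 0.904), 1.00 ± 0.66 for Ctss (adjusted p = 0.703) and 0.92 ± 0.44 for H2-Eb1 (adjusted p = 0.485). For Cd74 it was 0.47 ± 0.70 (adjusted p = 0.942) and for H2-Ab1 -0.26 ± 0.49 (adjusted p = 0.959). Lcp1 (-0.27 ± 0.18, adjusted p = 0.718) and Coro1a (-0.31 ± 0.24, adjusted p = 0.777) had values below 0. Cd53 rests on the counts given above, 7 in IP injured (6 of them in library 3) and none in IP naive libraries. It did not pass (adjusted p = 0.335), and counts this low give no firm fold.

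IP injured library 1 was low for the C1q chains and also for other cell types without the tag. The 3 chains summed to 5.20, 27.1 and 42.8 CPM in IP injured libraries 1 to 3 and to 5.65, 6.41 and 7.42 CPM in IP naive libraries. Monocyte and neutrophil markers, a list of 8 genes of which 7 had counts, summed to 25.2, 217.4 and 115.4 CPM in IP injured and to 44.0, 104.9 and 143.4 CPM in IP naive libraries. Erythroid markers summed to 90.7, 268.3 and 191.8 CPM in IP injured and to 74.8, 291.6 and 265.8 CPM in IP naive libraries. Library 1 was lowest in both IP groups for all 3 sums.

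Satellite glia wrap the cell bodies of sensory neurons, and 7 genes of their list had counts. Their sum was 935.5, 1266 and 1250 CPM in IP injured and 604.2, 816.1 and 798.8 CPM in IP naive libraries, which do not overlap. In input it averaged 2888 ± 243.7 CPM in injured and 2677 ± 138.8 CPM in naive libraries (SD, n = 3 each). Glul, which encodes glutamine synthetase, held most of that sum in IP, with 798.2, 897.3 and 916.1 CPM in IP injured and 444.3, 478.2 and 461.3 CPM in IP naive libraries (log2 0.92 ± 0.12, adjusted p = 5.15e-05). Without Glul the sum was 137.3, 368.4 and 334.2 CPM in IP injured and 159.9, 337.8 and 337.5 CPM in IP naive libraries, which overlap, and none of the other 6 genes passed. In input the sum without Glul was 1714, 1698 and 2144 CPM in injured and 1796, 1914 and 1996 CPM in naive libraries. The part of these other sums in the C1q values was not tested.

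**Figure D3:**
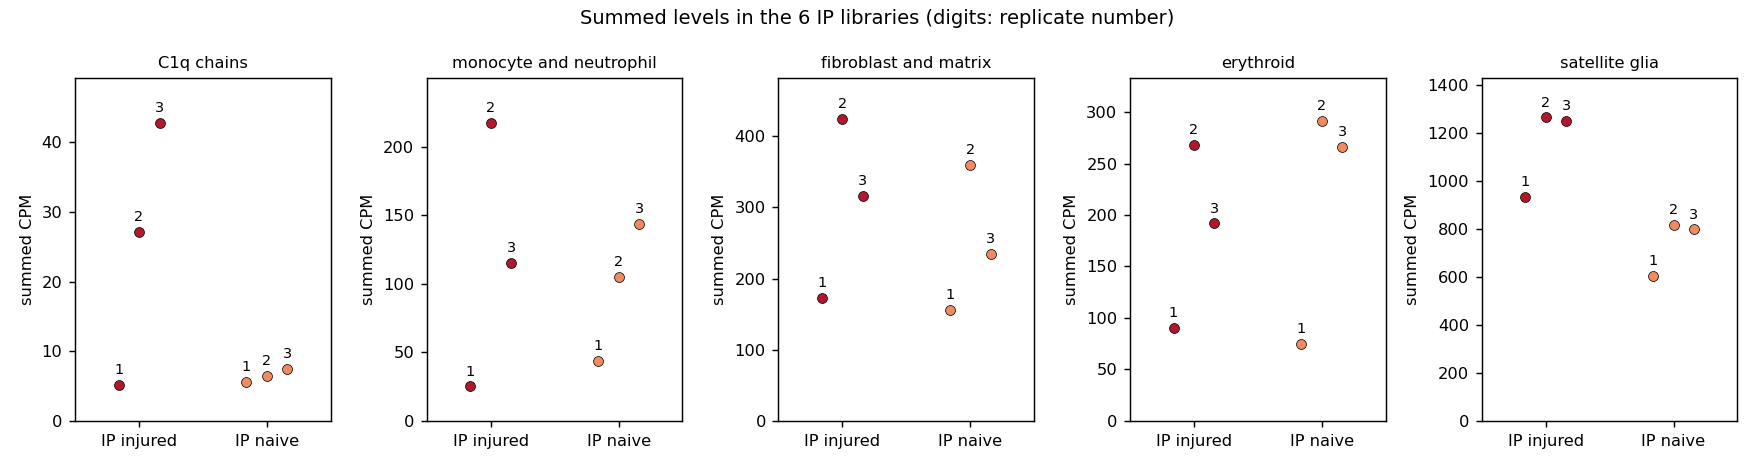
Summed CPM (vertical axis) in the 6 IP libraries for the C1q chains and for 4 lists of genes of other cells, with the replicate number beside each point. Libraries 2 and 3 of IP injured lie above all IP naive libraries for the C1q chains, while IP injured and IP naive libraries overlap for monocyte and neutrophil, fibroblast and erythroid genes and are separate for satellite glia genes.

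In input, which holds the RNA of all cells of the ganglion, no gene of the 28 passed after injury, and 2 had an unadjusted p under 0.05, against 10.9% of all genes (edgeR). DESeq2 called none either. Over all genes 1.18% passed in either direction. Of the 28, 20 had fold changes above 0, against 50.3% of all genes, and the median was 0.49 against 0.00328 for all genes. The SD of 0.425 given above for the median between libraries applies here too. Input injured lay wholly above input naive for 10 genes (C1qa, C1qc, Mrc1, Ctss, Fcer1g, Laptm5, Adgre1, Ms4a7, Trem2 and F13a1) and wholly below it for Lcp1. Over all genes tested 7.82% lay wholly above and 7.2% wholly below.

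C1qa had 40.1, 75.2 and 65.5 CPM in input injured and 15.8, 25.6 and 36.2 CPM in input naive libraries (1.22 ± 0.64, adjusted p = 0.52). C1qc had 58.8, 44.8 and 54.7 CPM against 26.4, 22.9 and 41.8 CPM (0.80 ± 0.47, adjusted p = 0.612). Both were separate between the sides, and C1qb, with 11.6 CPM in input injured library 1, was not (1.56 ± 0.77, adjusted p = 0.482). F13a1 had 27.9, 32.5 and 18.1 CPM in input injured and 6.33, 12.98 and 6.80 CPM in input naive libraries (1.58 ± 0.55, adjusted p = 0.243). Mrc1 (1.78 ± 0.78, adjusted p = 0.387) and Laptm5 (1.32 ± 0.74, adjusted p = 0.576) did not pass either. The fold changes of Ctss (0.94 ± 0.63, adjusted p = 0.682), Fcer1g (1.11 ± 0.76, adjusted p = 0.695), Cx3cr1 (1.03 ± 0.74, adjusted p = 0.718) and Lyz2 (0.45 ± 0.52, adjusted p = 0.884) did not pass. Lcp1 had -0.32 ± 0.18 (adjusted p = 0.585) and Coro1a -0.22 ± 0.24 (adjusted p = 0.865).

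The sum of the 3 C1q chains was 110.5, 162.8 and 177.6 CPM in input injured and 50.6, 63.5 and 92.4 CPM in input naive libraries. The 3 tested class II genes summed to 157.9, 162 and 213.4 CPM in input injured and to 122.7, 151.7 and 228.2 CPM in input naive libraries. C1q sums were thus separate between the sides, and class II sums overlapped.

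Whether injury acted differently in the precipitate and the whole ganglion was tested as an interaction. It called none of the 28 genes and none (0%) of all 11387, with 2 and 383 genes at an unadjusted p under 0.05 (edgeR), and DESeq2 also called none of the 28 and 14 of all genes. For C1qc the difference was 1.63 ± 0.69 (unadjusted p = 0.0298, adjusted p = 1.00). A different response in the 2 fractions was therefore not shown for any gene of the list.

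**Figure D4:**
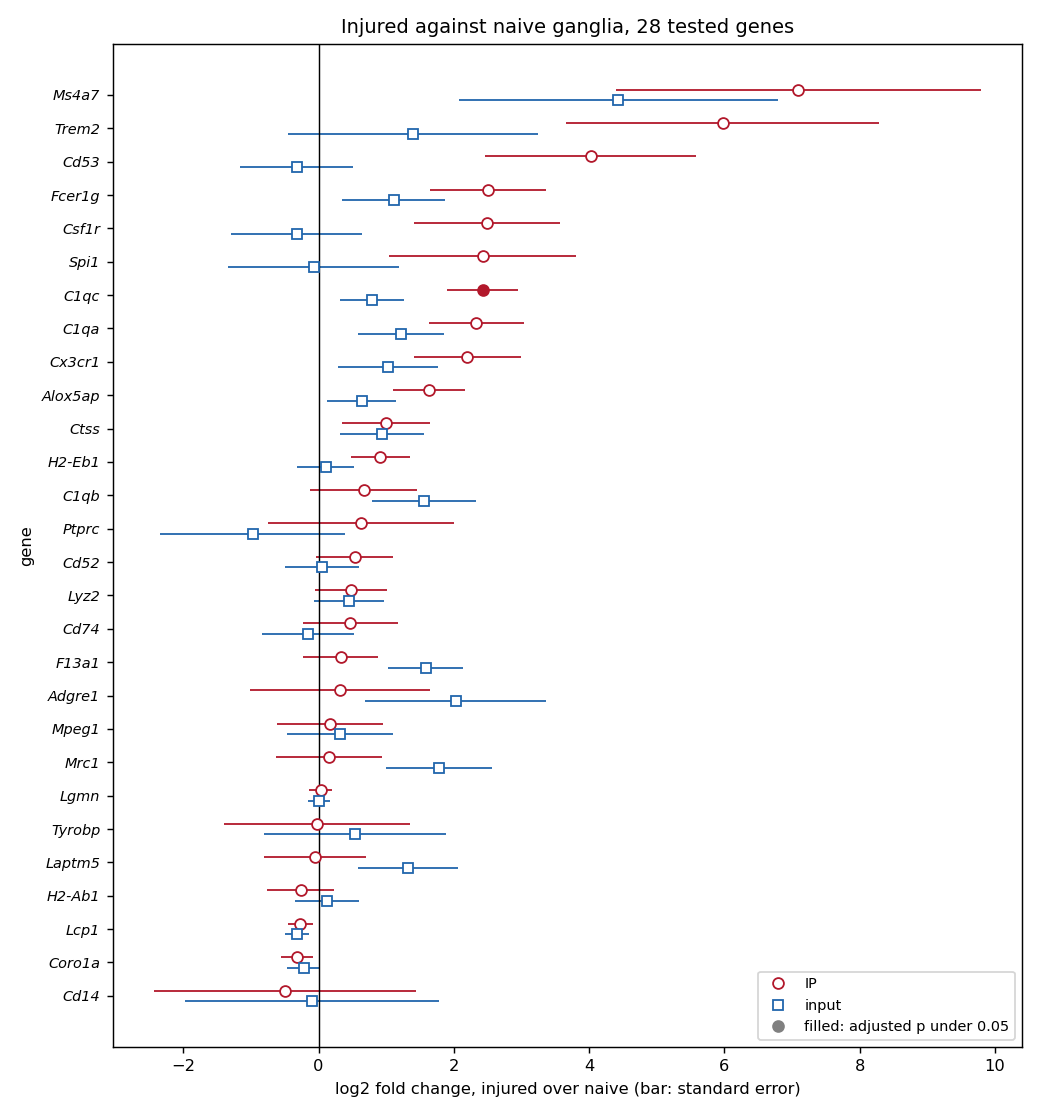
Log2 fold change of injured over naive ganglia with its standard error for the 28 tested genes, in IP (circles) and input (squares), ordered by the value in IP. C1qc in IP is the filled symbol (adjusted p = 0.0171), and the long bars of Ms4a7, Trem2 and Cd53 belong to genes without counts in IP naive libraries.

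At single 3′ end sites, 39 of the 74 sites tied to these genes were tested. One rose after injury in IP, none changed in input, 2 were lower in IP than in input in injured ganglia and 6 in naive ganglia. The main site of C1qc, with 2591 of its 2628 counts, did not pass after injury in IP (edgeR, 2.36 ± 0.57, adjusted p = 0.157). Over all 46229 sites 0.264% rose after injury in IP, 0.195% changed in input in either direction, 0% passed in the interaction, and 2.49% and 2.77% were lower in IP than in input in injured and naive ganglia. The sites lower in IP on both sides were those of Cd53 and Lyz2, and C1qa, C1qc, H2-Eb1 and Alox5ap were added in naive ganglia. DESeq2 called 13 and 15 sites lower.

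The site that rose belongs to Alox5ap, which encodes FLAP, the protein that presents arachidonic acid to 5-lipoxygenase for leukotriene synthesis. Alox5ap lies on the plus strand of chromosome 5 (149265004 to 149288153) and had counts at 2 sites whose starts are 98 bp apart. The downstream site (chr5:149288102-149288127, 26 bp before the annotated end) had 58, 64 and 65 counts in IP injured libraries and 1, 0 and 1 counts in IP naive libraries. It had 99, 128 and 219 counts in input injured and 116, 72 and 104 counts in input naive libraries. IP naive libraries thus stood apart from the other 3 groups. The log2 fold change after injury in IP was 6.32 ± 0.82 (adjusted p = 0.00362), and the ratio of the summed levels was 95.3 with a counting interval of 26 to 792 (exact Clopper-Pearson, 95%). The call was kept with any 1 library left out and lost with both IP libraries numbered 1 left out, with a log2 fold change of 6.75 ± 1.07 (adjusted p = 0.052).

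The upstream site (chr5:149288004-149288029, 124 bp before the end) had 15, 103 and 33 counts in IP injured and 68, 16 and 38 counts in IP naive libraries, which overlap (0.46 ± 0.90, adjusted p = 1.00). Of the counts of both sites, the downstream one held 79.5%, 38.3% and 66.3% in IP injured libraries and 1.45%, 0% and 2.56% in IP naive libraries. Its share was between 52.9% and 71.2% in input injured and between 52.2% and 91.3% in input naive libraries. The IP naive shares rest on 69, 16 and 39 counts, and the upper limit of the exact 95% interval for the library with none was 20.6%. In input the downstream site had a log2 fold change of 0.45 ± 0.58 after injury (adjusted p = 0.985). The interaction at this site was 5.87 ± 0.98 and did not pass in edgeR (adjusted p = 0.41), while DESeq2 called it (6.01, adjusted p = 0.00515). In naive ganglia the downstream site was lower in IP than in input by -7.16 ± 0.83 on the log2 scale (adjusted p = 0.00192). No other site was tied to Alox5ap. Summed over both sites, Alox5ap had 5.75, 18.2 and 7.18 CPM in IP injured libraries and 19.2, 26.2 and 36.2 CPM in input injured libraries. Its level was 5.34, 1.66 and 2.87 CPM in IP naive and 17.1, 13.7 and 21.7 CPM in input naive libraries. IP lay below input on both sides, with log2 -1.40 ± 0.52 in injured ganglia (adjusted p = 0.133) and -2.40 ± 0.54 in naive ganglia (adjusted p = 0.00911).

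**Figure D5:**
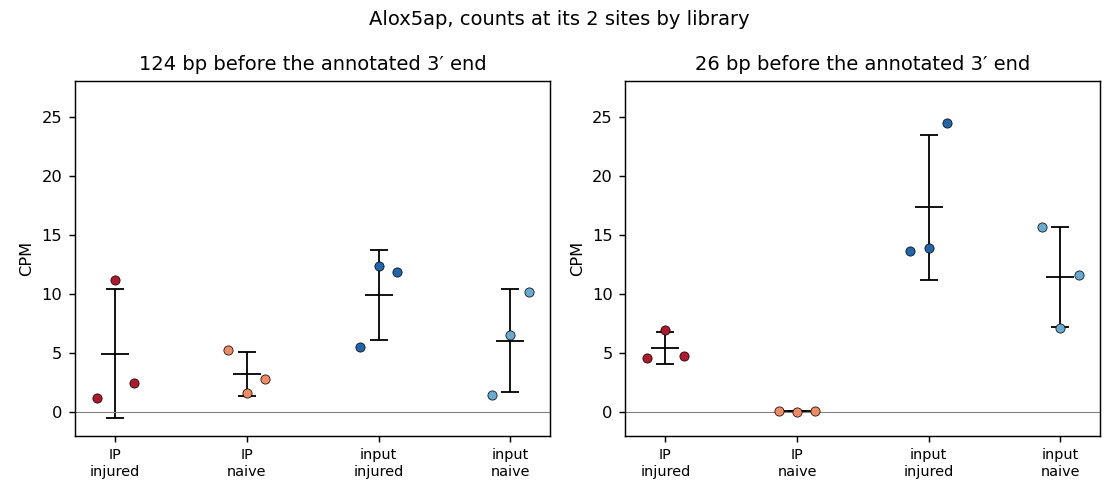
Level (CPM) of the 2 Alox5ap sites in each library, with mean and SD bars (n = 3 per group). At the downstream site (right) the 3 IP naive libraries lie at or near 0, and the IP injured libraries between 4.57 and 6.97 CPM.

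Genes of the same biology outside the list were read for comparison. Csf1, the growth factor that Csf1r binds, rose in both fractions. It had 55.1, 72.5 and 82.0 CPM in IP injured and 7.43, 12 and 7.28 CPM in IP naive libraries, a 7.88-fold rise (log2 2.98 ± 0.31, adjusted p = 4.73e-06). In input it had 67.2, 46.4 and 81.3 CPM in injured and 12.7, 14.7 and 12.7 CPM in naive libraries (log2 2.28 ± 0.30, adjusted p = 0.000125). Csf1 itself did not pass between IP and input, although its IP naive libraries lay below its input naive libraries (0.11 ± 0.28, adjusted p = 0.906, in injured and -0.59 ± 0.30, adjusted p = 0.274, in naive ganglia). Il34, the second ligand of this receptor, had 82.9, 90.8 and 58.1 CPM in IP injured and 46.9, 37.5 and 45.9 CPM in IP naive libraries without passing (0.83 ± 0.22, adjusted p = 0.0647). Among 10 tested macrophage ligands and chemokines Csf1 was the 1 gene called after injury in IP and in input, and none fell.

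Of 13 tested phagocyte and lysosome genes, Cd63 and Lgals3 rose after injury in both fractions. Cd63, a tetraspanin of late endosomes, had log2 1.94 ± 0.16 in IP (adjusted p = 2.33e-07) and 1.17 ± 0.16 in input (adjusted p = 0.000138). Lgals3, the gene of galectin 3, had 1.19 ± 0.23 in IP (adjusted p = 0.00678) and 1.83 ± 0.24 in input (adjusted p = 0.0001). Of the 7 tested monocyte and neutrophil markers, 4 were lower in IP on each side and none changed after injury. S100a8, a calcium-binding protein of neutrophils, had -3.25 ± 0.54 in injured (adjusted p = 0.000743) and -3.28 ± 0.54 in naive ganglia (adjusted p = 0.000585). Of 9 other complement genes tested, none passed after injury in IP or input. Of 3 lymphocyte markers tested, none passed in any comparison, and the sum of the 5 with counts was at most 14.4 CPM in a library.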

How the data were processed

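The deposited table holds raw counts for genomic intervals (sites), not normalized by the authors. Per the submitters' processing notes bcl2fastq 2.17, STAR and HTSeq were used, with GRCm38 and mm10 as builds. The calling of intervals and the treatment of multiply aligned reads are not given in the sources used here. Libraries were QuantSeq REV, per the labels' protocols. Of 178451 lines, 20 damaged ones were left out, and 17 columns without a name were not used.

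Sites were tied to RefSeq genes (GRCm38.p6) on the same strand, up to 200 bp past the 3′ end. Gene strand came from the promoter table (24 of the 34 genes) or from the end with more counts (10), which matched the table in 99.9% of 7972 genes that have both. A reading by the share of counts on a strand matched in 59.3% of 2375 genes and was not used. Sites outside repeats or within 100 bp of the annotated end were summed, giving 72.7% of all counts. The first block of lines was taken as the minus strand and the second as the plus strand.

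All 12 libraries entered 1 edgeR 4.0.16 quasi-likelihood fit in R 4.3.3 (1 mean per group, TMM, filterByExpr, Benjamini-Hochberg over 11387 genes or 46229 sites). Errors after ± are standard errors for log2 values and SD for levels. The fit was tested on simulated data for injured against naive input. It called 29 of 100 genes changed by log2 1 in either direction and 61 of 100 changed by log2 2. Of 11187 unchanged genes it called 1. The changed genes were drawn at random from all tested genes. Counts were simulated from input levels with the spread estimated from these data and without a link between libraries. The rates therefore do not describe the listed genes or the comparisons that use IP. A gene that did not pass may therefore still have changed. DESeq2 1.42.0 was an alternative. Floors (3 counts) and 95% intervals cover counting error only, and a bound takes the counts of the other group without error. Values in every library are given for genes called in any comparison and for those with the highest counts. Fold changes are injured over naive and IP over input. The genes and lists were chosen with earlier results of these data known. Other choices were tried as in the closing section.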

Additional observations from a re-analysis of the deposited data

How the results depend on the processing

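Over the 12 alternatives other than leaving out 1 library, 7 to 15 listed genes were lower in IP in injured ganglia and 9 to 16 in naive ganglia. After injury in IP the count was 1 and became 2 with DESeq2, with a replicate block, with sites at the annotated 3′ end alone and with both IP libraries numbered 1 left out (chosen after seeing the data), 0 with the IP groups fitted alone, and 0 to 3 with 1 library left out. The median of the 28 genes after injury in IP lay between 0.36 and 1.09 with 1 library left out. In naive ganglia 8 to 13 genes were lower in IP with 1 library left out. In injured ganglia 8 to 11 were, 7 with sites at the 3′ end alone, and the median lay between -2.72 and -1.99. No alternative called a listed gene after injury in input or in the interaction.

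Site counts moved more. After injury in IP there were 2 sites with DESeq2, 0 with both IP libraries numbered 1 left out, and 1 to 2 with 1 library left out. IP against input gave 15 sites with DESeq2 in naive ganglia (4 to 9 with 1 library left out). In injured ganglia it gave 13 with DESeq2, 4 with at least 10 counts in 6 libraries, 7 with a replicate block, 1 with both IP libraries numbered 1 left out and 0 to 2 with 1 library left out. DESeq2 called 1 site in the interaction, that of Alox5ap.

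Signs turned for values near 0. After injury in IP, with 1 library left out, C1qb ranged from -0.38 to 1.20, Lyz2 from -0.193 to 0.996, Cd74 from -0.044 to 1.94 and H2-Ab1 from -0.69 to 0.36, and Lcp1 stood at 0.016 with both IP libraries numbered 1 left out. After injury in input Lyz2 was at -0.28 with 3′ end sites alone and at -0.30 with no reach past the end. In naive IP against input Lcp1 ranged from -0.00022 to 0.27 with 1 library left out and stood at -0.0098 with both IP libraries numbered 1 left out. In injured ganglia Lgmn ranged from -0.24 to 0.023. The causes were not tested.

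Over all genes DESeq2 called 344 and 288 genes after injury in IP and input, 1041 and 1267 between IP and input in injured and naive ganglia, and 14 in the interaction. In edgeR 174 and 134 passed after injury, 458 were lower and 218 higher in IP in injured ganglia, 569 were lower and 223 higher in naive ganglia, and 0 passed in the interaction.

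Both sides were taken from each animal, but it is not stated that a replicate number marks 1 pool of animals across groups. For that reason the main fit did not take the numbers as pairs. The deviations of same-numbered libraries correlated between -0.028 and 0.105, and those of other numbers between -0.104 and 0.024. With 3 libraries to choose from, 31 of 36 comparisons of a library with another group were highest with its own number. Each pair of groups was read in both directions after centring each group, so these comparisons are not separate. The main fit leaves out any link between same-numbered libraries, and the source of these correlations was not tested. With the replicate block C1qa passed after injury in IP (adjusted p = 0.0173), and Cd74 (0.0385) and Fcer1g (0.0415) passed between IP and input in injured ganglia, where 14 genes were then lower. Low counts limit the fold changes of genes such as Trem2, Ms4a7 and Cd53, which had no counts in IP naive libraries.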
